A study of Mus musculus with 82 samples.

Results

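Type I interferon stimulated genes were followed as 1 set across 82 RNA libraries from mouse T cells that recognise ovalbumin. The set was chosen by symbol: 35 genes were listed, and 34 of them were measured in all 3 deposited count tables, out of 21823 genes that the tables share. Mx1, the remaining gene, is not analysed here. All 34 measured genes passed the filter on low counts in every fit.

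OT-I (CD8) and OT-II (CD4) T cells each carry a transgenic receptor for ovalbumin. Both were transferred into recipient mice, sorted by flow cytometry from the spleen and lymph nodes 4 days after antigen treatment, and sequenced as bulk polyadenylated RNA. Recipients received pGal-OVA (a synthetically glycosylated ovalbumin, here pGal), 5 µg of plain ovalbumin (OVA) or saline. The pGal amount is given as 5 µg in the design text but as a molar match to OVA in the protocol, so the antigen amounts may differ.

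In the prophylactic experiment the antigen came 1 day after transfer, and each library held sorted cells of 3 pooled C57BL/6 mice, in 2 labelled batches. Its OT-I cells gave 5 pGal, 5 OVA and 5 saline libraries, and its OT-II cells 5 pGal, 4 OVA and 5 saline libraries. In the therapeutic experiment all mice, the saline group included, had been primed a month before treatment with ovalbumin emulsified in complete Freund's adjuvant, and each library came from 1 mouse. Its labels name 10 pGal, 10 OVA and 8 saline OT-I libraries, and 10 pGal, 8 OVA and 7 saline OT-II libraries.

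Cd4 and Cd8a, which encode the coreceptors that define the sorted cell types, went against the label in 11 therapeutic libraries. These are 2 libraries in each therapeutic OT-I group, 2 each of OT-II pGal and OT-II OVA, and 1 of OT-II saline. They were kept under their label and left out of the fits, which leaves 8 pGal, 8 OVA and 6 saline OT-I libraries and 8 pGal, 6 OVA and 6 saline OT-II libraries. Total counts were 21.2 to 68.2 M per library. B cell transcripts stood out in 12 libraries (Cd79a over 100 CPM, the count scaled to a common library total), and 3 prophylactic libraries had over 100 CPM of the other coreceptor. Each count of called members was repeated without them, and the values that moved are given. In bulk RNA, fewer cells of a type and less RNA per cell cannot be told apart.

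Type I interferons bind a receptor of the chains Ifnar1 and Ifnar2, which activates the kinases Jak1 and Tyk2. These activate transcription factors, among them Stat2, which with Irf9 binds the interferon-stimulated response element in the promoters of target genes. The targets include antiviral enzymes and RNA sensors, factors such as Irf7 that carry the response on, and the protease Usp18 that restrains it. T cells respond to type I interferon during activation, and many of these genes also respond to interferon gamma.

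Of the 34 measured genes, 27 have at least 1 promoter in the RefSeq table for GRCm38.p6, each covering 250 bases before to 50 after a start site. The core of the response element, searched as GAAA, NN and GAAA in 1 run (N is any base) on both strands with overlapping matches counted, was present in 12 of 27 genes (44.4%), against 3.99% of 27025 genes in the table. The core of the gamma-activated site, searched as TTCNNNGAA, which reads alike on both strands, was present in 9 of 27 (33.3%), against 9.55% of genes. A match describes these letters and does not show a used site. The promoters below, 5′ to 3′ on the gene's own strand, are shown because these genes carry the main differences. Capitals mark a match to the response element core or its reverse complement. Isg15, Oas1a, Eif2ak2 and Oas3 hold matches and were higher after pGal than after saline in prophylactic OT-II cells. Ifit3 holds matches and differed between cell types in therapeutic saline libraries. Samhd1, Oasl1 and Ifi44 hold none in this window, though Samhd1 was also higher after pGal in prophylactic OT-II cells.
Isg15, chr4:156200769-156201068, minus strand: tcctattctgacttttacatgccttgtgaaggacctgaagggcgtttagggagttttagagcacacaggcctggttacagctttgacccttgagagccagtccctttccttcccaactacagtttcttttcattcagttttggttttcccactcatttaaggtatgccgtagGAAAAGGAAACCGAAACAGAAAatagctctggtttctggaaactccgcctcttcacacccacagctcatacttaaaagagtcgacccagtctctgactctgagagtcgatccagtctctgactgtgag
Oas1a, chr5:120907476-120907775, minus strand: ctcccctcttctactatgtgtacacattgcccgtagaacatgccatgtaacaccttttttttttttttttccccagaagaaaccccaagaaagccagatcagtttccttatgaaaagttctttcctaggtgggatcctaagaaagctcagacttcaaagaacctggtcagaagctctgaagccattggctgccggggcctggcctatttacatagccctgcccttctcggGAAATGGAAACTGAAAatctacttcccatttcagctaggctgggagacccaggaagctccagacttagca
Eif2ak2, chr17:78882523-78882822, minus strand: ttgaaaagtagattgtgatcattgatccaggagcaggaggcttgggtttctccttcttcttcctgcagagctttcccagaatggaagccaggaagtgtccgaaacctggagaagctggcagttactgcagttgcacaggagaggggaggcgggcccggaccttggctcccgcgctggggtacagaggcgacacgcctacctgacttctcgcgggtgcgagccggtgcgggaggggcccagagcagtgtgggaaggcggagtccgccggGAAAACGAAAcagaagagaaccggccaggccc
Oas3, chr5:120777610-120777909, minus strand: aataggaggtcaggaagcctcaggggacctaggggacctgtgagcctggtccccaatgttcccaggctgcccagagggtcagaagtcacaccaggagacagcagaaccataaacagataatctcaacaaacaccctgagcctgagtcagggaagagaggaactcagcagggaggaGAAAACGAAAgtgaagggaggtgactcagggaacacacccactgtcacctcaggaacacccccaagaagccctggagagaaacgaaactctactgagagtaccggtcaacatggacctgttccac
Ifit3, chr19:34583279-34583578, plus strand: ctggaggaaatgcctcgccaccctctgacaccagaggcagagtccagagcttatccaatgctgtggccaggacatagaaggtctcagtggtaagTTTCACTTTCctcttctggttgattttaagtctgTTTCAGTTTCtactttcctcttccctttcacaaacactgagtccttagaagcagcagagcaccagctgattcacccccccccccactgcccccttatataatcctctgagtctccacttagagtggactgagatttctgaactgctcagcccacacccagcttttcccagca
Samhd1, chr2:157135047-157135346, minus strand: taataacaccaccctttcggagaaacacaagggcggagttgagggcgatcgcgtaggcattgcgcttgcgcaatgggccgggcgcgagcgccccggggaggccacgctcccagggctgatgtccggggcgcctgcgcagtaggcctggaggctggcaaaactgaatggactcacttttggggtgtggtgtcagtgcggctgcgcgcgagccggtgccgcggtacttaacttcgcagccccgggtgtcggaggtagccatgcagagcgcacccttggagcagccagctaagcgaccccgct
Oasl1, chr5:114922990-114923289, plus strand: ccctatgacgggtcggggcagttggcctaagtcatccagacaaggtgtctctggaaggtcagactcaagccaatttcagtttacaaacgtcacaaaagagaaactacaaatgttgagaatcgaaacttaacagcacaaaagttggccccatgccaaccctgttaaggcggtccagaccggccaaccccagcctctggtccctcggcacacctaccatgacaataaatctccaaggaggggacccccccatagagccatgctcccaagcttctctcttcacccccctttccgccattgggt
Ifi44, chr3:151749861-151750160, minus strand: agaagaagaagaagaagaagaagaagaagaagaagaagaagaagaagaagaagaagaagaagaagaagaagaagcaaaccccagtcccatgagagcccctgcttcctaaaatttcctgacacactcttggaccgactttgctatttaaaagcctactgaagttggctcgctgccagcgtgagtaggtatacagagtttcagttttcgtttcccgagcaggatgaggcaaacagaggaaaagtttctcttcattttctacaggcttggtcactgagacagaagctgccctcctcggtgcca

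In Isg15, 3 matches overlap and begin 78 to 66 bases before the start site. In Oas1a both matches begin 20 and 14 bases before it. Those of Ifit3 begin 156 and 122 bases before it and that of Oas3 begins 75 before it, while the match of Eif2ak2 begins 18 bases after it.

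The whole set was first summarised as an interferon score, the mean over the 34 genes of log2(normalized CPM + 1), where CPM are scaled by TMM factors over all libraries. In prophylactic OT-I cells the score was 6.48 ± 0.24 after pGal, 6.46 ± 0.20 after OVA and 6.40 ± 0.15 after saline (SD, n = 5 each). In prophylactic OT-II cells it was 6.64 ± 0.19 after pGal (n = 5), 6.50 ± 0.10 after OVA (n = 4) and 6.44 ± 0.07 after saline (n = 5). The pGal minus saline difference was thus 0.09 in OT-I cells and 0.20 in OT-II cells. In the therapeutic experiment the order of the means ran the other way. Therapeutic OT-I cells scored 6.24 ± 0.27 after pGal (n = 8), 6.32 ± 0.20 after OVA (n = 8) and 6.39 ± 0.15 after saline (n = 6). Therapeutic OT-II cells scored 6.06 ± 0.38 after pGal (n = 8), 6.18 ± 0.14 after OVA (n = 6) and 6.29 ± 0.23 after saline (n = 6). Treatment groups overlapped in each cell type and experiment, and no p is given for the score. The lowest score, 5.35, belonged to a therapeutic OT-II pGal library in which 7.31% of the counts were mitochondrially encoded and 15179 genes exceeded 1 CPM.

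**Figure D1:**
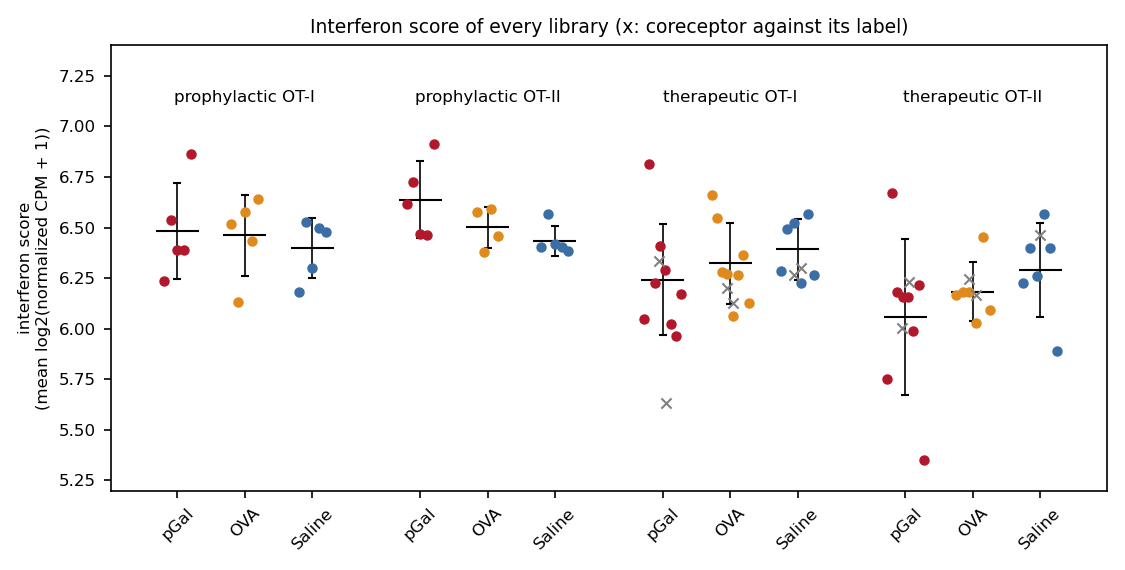
Interferon score of each library (y axis, mean log2(normalized CPM + 1) over 34 genes) by experiment, cell type and treatment, with the mean and SD over libraries that match their label. Crosses are the 11 libraries with a coreceptor against their label; the treatments overlap within each experiment and cell type.

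Prophylactic OT-II cells after pGal carried the clearest difference in single genes. Against saline 9 of the 34 genes rose and 3 fell (edgeR's quasi-likelihood test with Benjamini-Hochberg adjustment over 14128 genes, adjusted p under 0.05), while 11.7% of all tested genes passed the same test, 6.37% upward and 5.34% downward. The median log2 fold change was 0.21 over the 34 genes and 0.04 over all genes. The genes that rose were Eif2ak2, Oas1a, Isg15, Samhd1, Oas3, Isg20, Dhx58, Lgals3bp and Trim30a. The genes that fell were Oasl1, Irf1 and Ifit2, so the set did not move in 1 direction. DESeq2 called 17 of the 34 (12 up, 5 down), with 2490 of 14128 genes. With each of the 14 prophylactic OT-II libraries left out in turn, 9 to 14 genes passed by edgeR. Dhx58 lost its call in 5 of these fits (without pGal 1, pGal 2 or saline 3 of batch 1, or pGal 2 or saline 1 of batch 2). Isg20 lost it in 4 (without pGal 2 or saline 3 of batch 1, or saline 1 or 2 of batch 2), Ifit2 without saline 2 of batch 1 and Oasl1 without pGal 2 of batch 1.

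Eif2ak2, the kinase PKR that halts translation when it binds viral RNA, had 29.9, 31.9, 23.7, 29.8 and 41.8 normalized CPM in pGal OT-II libraries. It had 14.6, 22.1, 22.7 and 26.8 CPM in OVA libraries and 11.2, 18.1, 19.6, 13.8 and 6.99 CPM in saline libraries. Every pGal library lay above every saline library, and pGal and OVA libraries overlapped. The log2 fold change of pGal over saline was 1.19 (SE 0.27, adjusted p = 0.0119, edgeR), the largest of the 34.

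Oas1a is an oligoadenylate synthetase, which makes the messenger that activates RNase L. It had 54.4, 57.2, 60.8, 60.8 and 87.5 normalized CPM in pGal OT-II libraries, against 38.5, 38.6, 50.0 and 47.4 CPM in OVA and 38.3, 30.4, 30.0, 26.2 and 30.6 CPM in saline libraries. The pGal libraries lay above all OVA and saline libraries. The log2 fold change over saline was 1.05 (SE 0.14, adjusted p = 0.000371, edgeR). Over OVA it was 0.60 with an adjusted p of 0.0587 by edgeR, which missed the threshold. Its near-identical copy Oas1g had at most 4.17 CPM in these libraries, and how the authors' counting split reads between both is uncertain.

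Isg15 encodes a ubiquitin-like protein that is conjugated to other proteins. It had 57.5, 69.9, 40.3, 36.4 and 82.03 normalized CPM in pGal OT-II libraries, 30.0, 40.5, 32.1 and 21.9 CPM in OVA libraries and 36.5, 37.8, 31.8, 20.5 and 23.0 CPM in saline libraries. The pGal and saline libraries overlapped across batches and were separate within each batch. The log2 fold change over saline was 1.00 (SE 0.23, adjusted p = 0.0141, edgeR).

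Samhd1 encodes a phosphohydrolase that depletes the deoxynucleotides retroviruses need. It had 555, 643, 499, 592 and 662 normalized CPM in pGal OT-II libraries, against 316, 367, 372 and 464 CPM in OVA and 322, 316, 291, 307 and 336 CPM in saline libraries. The pGal libraries lay above all OVA and saline libraries. The log2 fold change was 0.93 over saline (SE 0.10, adjusted p = 0.000124, edgeR). It was 0.68 over OVA (SE 0.11, adjusted p = 0.00888, edgeR), where Samhd1 was the 1 gene of 34 that passed, upward. Of all genes 1.87% passed, 1.11% upward and 0.757% downward. Without the B-rich libraries 3 of the 34 passed (1 up, 2 down), and DESeq2 called 8 (6 up, 2 down). The share of all genes called was 4.22% without the B-rich libraries and 6.47% with DESeq2. With each library left out in turn 1 to 3 passed, Samhd1 among them in all 14 fits. The median over the 34 genes in pGal against OVA was 0.19, against -0.01 over all genes, and 26 of 34 were above 0.

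Among the other oligoadenylate synthetase genes, Oas3 rose (0.88, SE 0.17) and the catalytically inactive Oasl1, which in mouse restrains translation of Irf7, fell (-0.79, SE 0.20). Oas2 and Oasl2 had log2 fold changes of -0.77 and -0.36 and did not pass. Of the family's genes in the set, 2 thus rose and 1 fell. Oas3 had 56.8 CPM after pGal against 32.3 CPM after saline, and Oasl1 19.2 CPM after pGal against 33.9 CPM after saline. Oas1g, a gene of the family outside the set, also rose (2.05). Isg20, an exonuclease of RNA, rose to 60.7 ± 20.0 CPM after pGal, against 34.6 ± 6.92 CPM after saline (SD, n = 5 each, log2 fold change 0.84).

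The IFIT proteins bind foreign RNA ends. Ifit2 fell to 50.4 ± 8.51 CPM after pGal, against 76.4 ± 14.3 CPM after saline (log2 fold change -0.57, SE 0.15). Ifit1 and Ifit3 had log2 fold changes of 0.05 and 0.24 and did not pass. Ifit3 had 71.8, 98.6, 59.0, 46.0 and 84.8 CPM in pGal libraries, 47.1, 64.0, 61.0 and 81.7 CPM in OVA libraries and 62.1, 92.6, 55.3, 59.3 and 41.4 CPM in saline libraries. The treatments overlapped. Ifit1 and Ifit3 each have a related gene, Ifit1bl1 and Ifit3b, and how reads were split between them is uncertain.

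Of the transcription factors, Irf1 fell in OT-II cells after pGal. It had 354 ± 16.4 CPM after pGal and 584 ± 52.0 CPM after saline (log2 fold change -0.69, SE 0.10, adjusted p = 0.000521, edgeR), with no overlap. Stat2, Irf9 and Irf7, which transmit or amplify the type I signal, had log2 fold changes of 0.38, 0.22 and 0.09 and did not pass. Stat2 had 124, 144, 117, 106 and 113 CPM in pGal libraries, 92.7, 97.0, 138 and 136 CPM in OVA libraries and 90.7, 105, 90.5, 124 and 64.2 CPM in saline libraries. Irf7 had 177, 205, 166, 152 and 247 CPM in pGal libraries, 181, 189.6, 182 and 164 CPM in OVA libraries and 199, 179, 186, 184 and 159.9 CPM in saline libraries. Both overlapped between all treatments.

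Among the RNA sensors, Dhx58, which encodes LGP2, rose (0.68, SE 0.18). Ifih1, the sensor MDA5, had a log2 fold change of 0.73 and Ddx58, the sensor RIG-I, one of -0.52, and neither passed. Zbp1, a sensor of Z-form nucleic acid, had 0.28 and did not pass. The immunoproteasome subunits Psmb8 and Psmb9 and the peptide transporter subunit Tap1 had values of 0.05 to 0.18 and did not pass. Lgals3bp, a secreted glycoprotein, rose (0.58, SE 0.13), as did Trim30a (0.49, SE 0.11), whose copy Trim30d shares sequence with it. Rsad2, the antiviral enzyme viperin, had 0.95 with an adjusted p of 0.0548 by edgeR. The remaining genes, Usp18, Bst2, Ifi35, Ifi44, Rtp4, Xaf1, Parp14 and Ly6e, lay between -0.29 and 0.74 and did not pass.

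For the 12 genes, which had passed in a fit over both batches, the within-batch difference of mean log2(CPM + 1) in the called direction was 0.37 to 1.05 in batch 1 (3 pGal and 3 saline libraries) and 0.48 to 1.74 in batch 2 (2 and 2). Fitted alone, batch 1 gave 8 genes (6 up, 2 down), with 12% of all genes, and batch 2 gave 0, where 0 of all genes tested passed. A pGal library of batch 1 was rich in B cell transcripts. The summed level of 10 B cell markers was 41.7 to 3881 CPM in pGal and 55.5 to 835 CPM in saline OT-II libraries, and without the B-rich libraries 13 genes passed (10 up, 3 down), with 14.7% of all genes. The 8 plasmacytoid dendritic cell markers had a median log2 fold change of 0.63, and their sums were 89.9 to 879 CPM after pGal and 138 to 259.9 CPM after saline. Of them only Ccr9, a gene that T cells also express, passed, and it fell by 2.61 on the log2 scale. The part of these markers in the result was not tested.

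**Figure D2:**
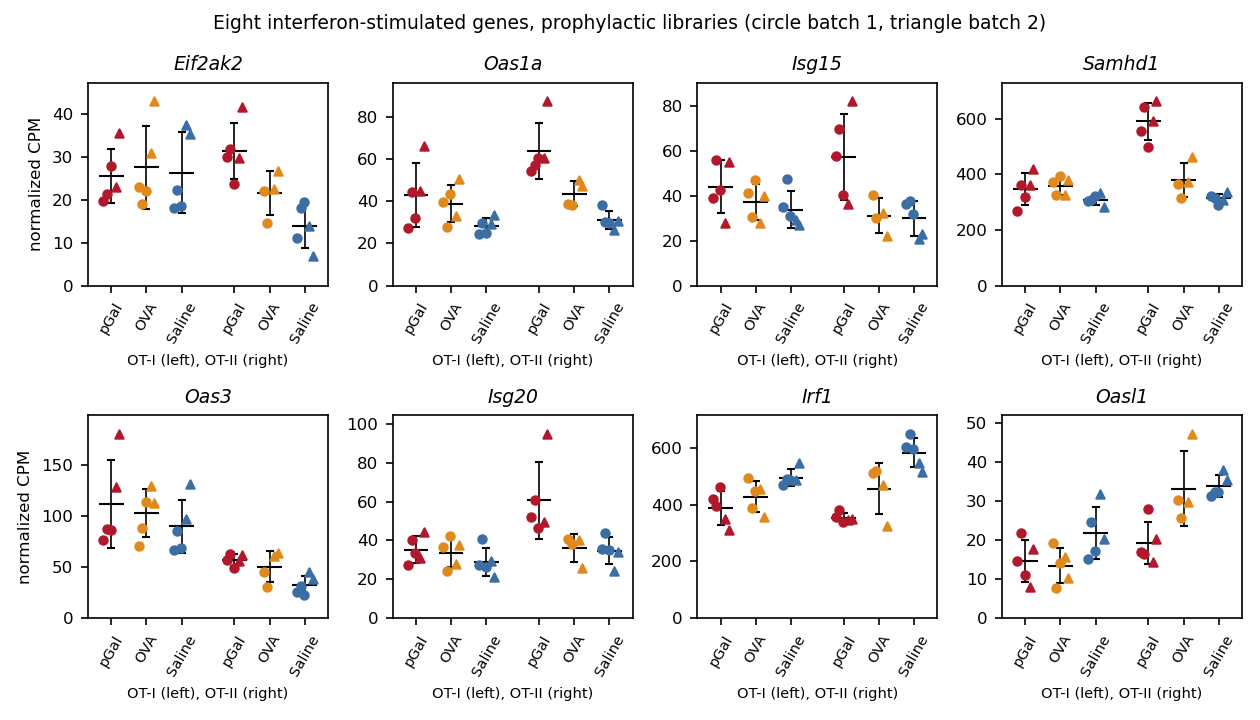
Normalized CPM of Eif2ak2, Oas1a, Isg15, Samhd1, Oas3, Isg20, Irf1 and Oasl1 in each prophylactic library (y axes start at 0), OT-I cells at left and OT-II cells at right in each panel, with mean and SD and circles for batch 1 and triangles for batch 2. In OT-II cells Samhd1 sits at 499 to 662 CPM after pGal, above all OVA and saline libraries, while Irf1 sits at 338 to 381 CPM, below all saline libraries.

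In OT-II cells after pGal against saline, 6.37% of all tested genes rose and 5.34% fell. Of the 12 genes with the response element core in a promoter, 5 rose and 0 fell there, with a median log2 fold change of 0.61. Of the 15 with a promoter and no match, 3 rose and 3 fell, with a median of 0.09. Of the 7 with no promoter in the table, Dhx58 rose, and the median was 0.17. Irf1, Ifit2 and Oasl1, the 3 genes that fell, were all among the 15 without a match. This is a description of these windows and carries no test. Genes outside the set were not split by the core, so whether the split is particular to these genes was not tested.

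The wider pathway was described by lists of related genes. Of 13 receptor and signalling genes, 3 rose and 1 fell in OT-II cells after pGal against saline, a comparison in which 11.7% of all genes passed. The receptor chain Ifnar2 rose to 178 ± 30.6 CPM after pGal, against 106 ± 6.44 CPM after saline (log2 fold change 0.75), and the kinases Jak2 (0.62) and Tyk2 (0.58) rose. Ifngr2, a chain of the interferon gamma receptor, fell by 1.03 on the log2 scale. Of 8 restraints of cytokine signalling, 4 fell and 1 rose: Socs3 had -1.41, Socs1 -0.94, Ptpn2 -0.43 and Pias1 -0.42, while the phosphatase gene Ptpn11 had 0.92.

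Of 9 sensors and adapters tested, Tmem173 (STING, 0.49) and Ticam1 (TRIF, 1.00) rose. Of 10 further genes of class I presentation 0 passed by edgeR, with 0 at an unadjusted p under 0.05 and a median of -0.003. Of 31 other interferon-stimulated genes tested, 6 rose and 1 fell, where 6.37% of all genes rose and 5.34% fell. The largest changes were those of Oas1g (2.05, at 1.47 CPM after pGal and 0.359 CPM after saline), Ifi27l2a (1.78), Trim30d (0.91) and Epsti1 (0.83). The gene that fell was Ifit1bl1 (-0.485). In pGal against OVA OT-II libraries 1 of the 31 was higher and 1 lower, where 1.87% of all genes passed. Ifi27l2a was higher, with 709 ± 189 CPM in pGal and 292 ± 75.0 CPM in OVA libraries (SD, n = 5 and n = 4). Ifit1bl1 was lower, with 63.3 ± 10.3 CPM in pGal and 105 ± 21.5 CPM in OVA libraries. Of the receptor genes, Ifnar2 had 0.50 in pGal against OVA (adjusted p = 0.0184, edgeR). In prophylactic OT-I cells 2 of the 31 other genes rose over saline, both after pGal and after OVA, and 0 fell. They were Ifi27l2a (1.23 and 1.26) and Phf11b (0.68 and 0.74), while 3.35% and 5.39% of all genes passed. In OT-II cells after OVA against saline, Epsti1 rose (0.68), where 0.163% of all genes passed.

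Ligand transcripts were scarce in the sorted T cells. Of 20 genes of type I and type III interferons, 4 exceeded 1 CPM in any of the 82 libraries, and Ifnb1, the gene of interferon beta, was at 0 in 79 libraries. Ifng, the gene of interferon gamma, is the ligand that passed the test in treatment comparisons. It had 15.4 ± 16.5 CPM after pGal, 13.7 ± 8.00 CPM after OVA and 3.35 ± 1.32 CPM after saline in prophylactic OT-I cells (log2 fold changes over saline 1.77 and 2.06).

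OVA alone moved none of the 34 genes past the test in prophylactic OT-II cells against saline, where 0.163% of all genes passed. At an unadjusted p under 0.05 there were 5 of the 34 and 7.32% of all genes. DESeq2 called 0 of the 34, with 146 of 14128 genes. The smallest p-values belonged to Irf1 (-0.35), Oas3 (0.57) and Oas1a (0.46), all with adjusted p of 0.378 or more by edgeR. The comparisons of pGal and OVA with saline share the saline libraries.

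In prophylactic OT-I cells after pGal against saline, 2 genes of the 34 rose and 0 fell, while 3.35% of all genes passed, 2.64% upward and 0.71% downward. Zbp1 had 147, 169, 146, 186 and 258 CPM in pGal libraries and 110.4, 145, 123, 139 and 156 CPM in saline libraries, which overlapped (log2 fold change 0.43, SE 0.11, adjusted p = 0.0452, edgeR). Xaf1, which encodes a partner of the apoptosis inhibitor XIAP, had 68.8, 70.8, 65.5, 77.6 and 106 CPM in pGal and 59.2, 63.0, 57.8, 58.4 and 58.7 CPM in saline libraries, without overlap (0.40, SE 0.11, adjusted p = 0.0497, edgeR). Both lay close to the threshold: with each of the 15 prophylactic OT-I libraries left out in turn, Xaf1 lost its call in 13 fits and Zbp1 in 10, and 0 to 4 genes passed. Without the B-rich libraries, or without those with the other coreceptor, 0 passed, while DESeq2 called 8 (6 up, 2 down) and 8.35% of all genes.

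Isg15 had 38.9, 56.0, 42.6, 28.0 and 55.1 CPM in pGal OT-I libraries, 41.2, 30.4, 46.9, 27.8 and 39.7 CPM in OVA libraries and 34.8, 47.4, 31.1, 29.2 and 26.8 CPM in saline libraries. Ifit3 had 62.2, 92.6, 83.2, 105 and 196 CPM in pGal, 83.5, 58.6, 122, 80.0 and 134 CPM in OVA and 61.0, 118, 69.6, 109.8 and 72.6 CPM in saline OT-I libraries. Irf7 ranged over 154 to 241 CPM after pGal, 133 to 234 CPM after OVA and 175 to 205 CPM after saline, and Stat2 over 69.2 to 104 CPM after pGal, 74.4 to 130 CPM after OVA and 73.2 to 121 CPM after saline. These 4 genes overlapped between all treatments in OT-I cells and did not pass.

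The median log2 fold change of pGal over saline in OT-I cells was 0.18 over the 34 genes and -0.003 over all, with 28 of 34 above 0. Irf1, which fell in OT-II cells, had -0.34 in OT-I cells with an adjusted p of 0.0767 by edgeR. After OVA against saline 1 gene of 34 rose and 0 fell in OT-I cells, while 5.39% of all genes passed, 4.12% upward and 1.28% downward. It was Psmb9, at 299.6, 326, 299.8, 233 and 252 CPM after OVA and 279.6, 245, 249.7, 194 and 211 CPM after saline, which overlapped (0.30, SE 0.07, adjusted p = 0.0248, edgeR). This call was also lost without the B-rich libraries and in 6 of the 15 fits that leave out 1 library.

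OT-I libraries after pGal and after OVA did not differ past the test in any of the 34 genes (0% of all genes passed), with 0 of 34 at an unadjusted p under 0.05 by edgeR (3.04% of all genes) and 0 by DESeq2. The fold changes lay between -0.18 and 0.24, and the smallest p-values were those of Irf1 (-0.16), Stat2 (-0.17) and Isg15 (0.24). Whether the response itself differed between cell types was tested with an interaction term. For pGal against saline, 1 gene of 34 passed, with 1.17% of all genes passing, 0.431% upward and 0.734% downward. It was Samhd1, whose fold change was lower in OT-I than in OT-II cells by 0.75 on the log2 scale (SE 0.14, adjusted p = 0.00759, edgeR), a call kept in all 29 fits that leave out 1 library. In OT-I cells Samhd1 had 267, 361, 320, 362 and 421 CPM after pGal and 303, 307, 321, 331 and 281 CPM after saline. For OVA against saline 0 of 34 passed (0.0337% of all genes), with 1 at an unadjusted p under 0.05 (7.29% of all genes) and 0 by DESeq2.

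**Figure D3:**
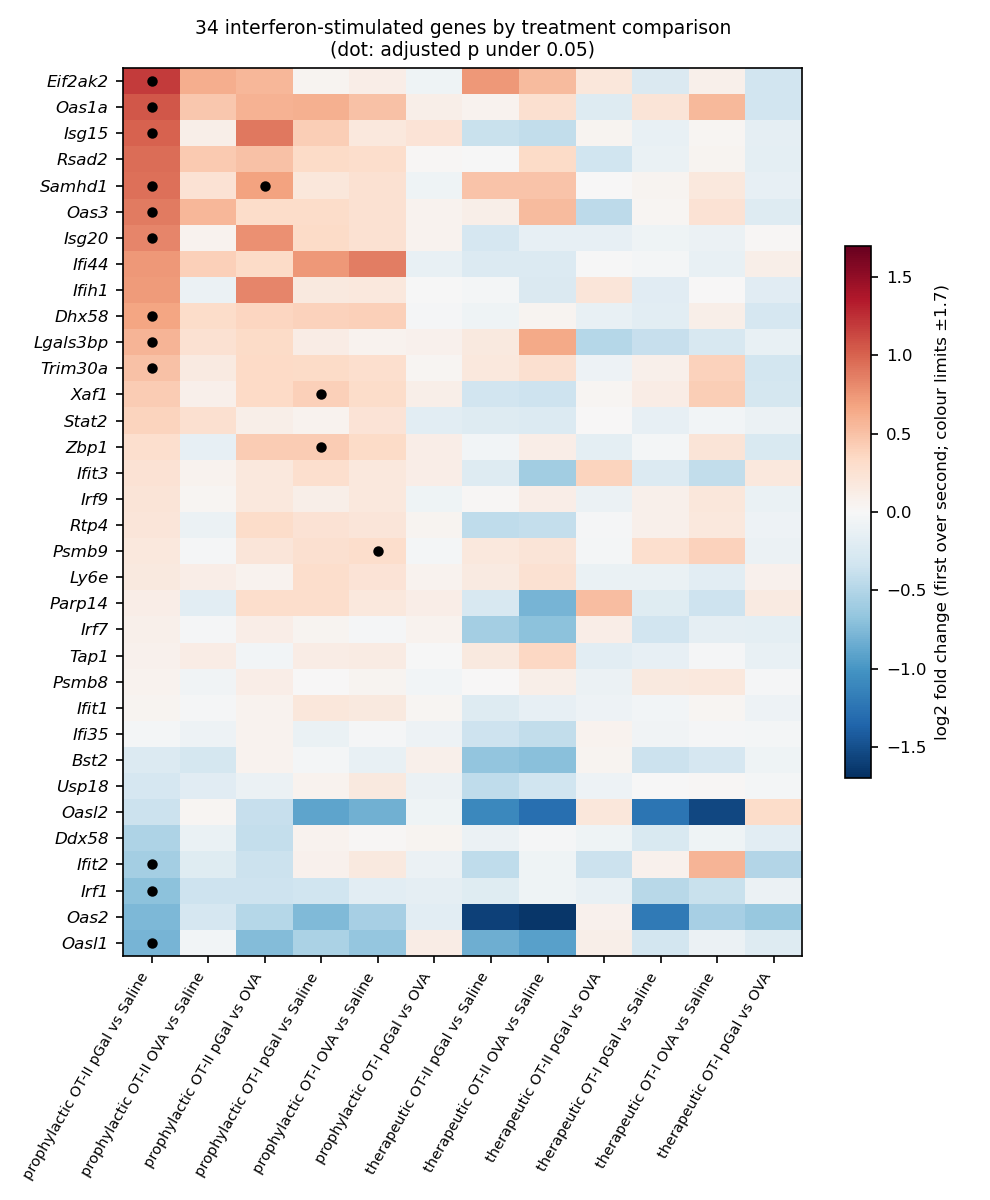
Log2 fold change of the 34 genes (rows, ordered by the first column) in the 12 treatment comparisons (columns), first group over second, with dots where the adjusted p was under 0.05. Prophylactic OT-II pGal against saline holds 12 dots, and the 6 therapeutic columns hold 0.

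In the therapeutic experiment none of the 34 genes passed in any of 6 treatment comparisons. In OT-I cells the share of all genes that passed was 0% for pGal against OVA, 0% for pGal against saline and 0.686% for OVA against saline. At an unadjusted p under 0.05 edgeR had 1 of the 34 for pGal against OVA (2.87% of all genes). It had 3 for pGal against saline (6.53%) and 6 for OVA against saline (12.8%). DESeq2 called 1 of the 34, in OVA against saline, with 371 of 14581 genes. In OT-II cells 0% of all genes passed for pGal against OVA, 0.00702% for pGal against saline and 1.54% for OVA against saline. At an unadjusted p under 0.05 there were 0 of the 34 for pGal against OVA (7.11% of all genes), 7 for pGal against saline (8.99%) and 9 for OVA against saline (15.5%). In OT-II cells DESeq2 called 1 of the 34 for pGal against saline, with 169 of 14244 genes. It called 2 for OVA against saline, with 714 of 14244 genes.

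The fold changes nearest to the threshold pointed mostly downward. Oas2 had a median of 4.54 CPM (2.13 to 9.89) in 8 pGal OT-II libraries and 5.23 CPM (1.78 to 7.99) in 6 OVA libraries, against 11.9 CPM (4.52 to 28.7) in 6 saline libraries. Its log2 fold change was -1.59 for pGal and -1.66 for OVA over saline, with adjusted p of 0.186 and 0.0834 by edgeR. Bst2, or tetherin, which holds budding virus to the cell surface, had -0.67 and -0.71 in these comparisons. Irf7 had a median of 112 CPM (97.9 to 139) in OVA OT-II libraries and 175 CPM (140.4 to 256) in saline libraries, with no overlap (-0.70, adjusted p = 0.166, edgeR). Eif2ak2 went the other way after pGal, at 31.6 CPM (20.2 to 39.9) against 18.9 CPM (13.1 to 22.4) after saline (0.74, adjusted p = 0.259, edgeR).

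In therapeutic OT-I cells Oasl2 had a median of 7.60 CPM (5.54 to 22.7) after pGal and 5.98 CPM (0.294 to 16.5) after OVA, against 20.5 CPM (13.6 to 28.4) after saline, with adjusted p of 0.649 and 0.110 by edgeR. Irf1 had 391 CPM (339 to 433) after pGal, against 509 CPM (439 to 622) after saline, without overlap (-0.48, adjusted p = 0.654, edgeR). In pGal against OVA the smallest p-values were those of Ifit2 (-0.50), Trim30a (-0.31) and Oas1a (-0.33) in OT-I cells, and Lgals3bp (-0.49), Oas1a (-0.22) and Ifih1 (0.21) in OT-II cells. In OT-I cells after OVA against saline, Oas1a (0.56) and Trim30a (0.40) followed Oasl2.

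The 4 genes followed in every comparison spread widely within therapeutic groups. Ifit3 had a median of 114 CPM (66.9 to 332) after pGal, 101 CPM (68.7 to 172) after OVA and 153 CPM (94.8 to 227) after saline in OT-I cells. Isg15 had 31.6 CPM (17.9 to 63.6) after pGal, 29.2 CPM (20.7 to 88.3) after OVA and 40.5 CPM (24.3 to 46.8) after saline. Stat2 had 112 CPM (99.1 to 139) after pGal, 103 CPM (67.3 to 262) after OVA and 112 CPM (91.9 to 168) after saline. Irf7 had 191 CPM (135 to 281) after pGal, 166 CPM (114 to 557) after OVA and 239 CPM (192 to 291) after saline. All 4 overlapped between treatments. In OT-II cells Isg15 had 34.3 CPM (23.8 to 63.8) after pGal, 43.2 CPM (18.0 to 46.7) after OVA and 50.8 CPM (33.7 to 63.9) after saline, also overlapping. Ifit3 had 31.6 CPM (7.347 to 91.2) after pGal, 24.7 CPM (17.6 to 44.7) after OVA and 37.1 CPM (16.8 to 77.5) after saline in OT-II cells. Stat2 had 118 CPM (90.8 to 152) after pGal, 113 CPM (102 to 149) after OVA and 141 CPM (105 to 164) after saline. Both overlapped as well, and so did Irf7 in pGal OT-II libraries, at 120.3 CPM (34.8 to 183), with saline libraries.

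The interaction of treatment and cell type gave 0 of 34 in the therapeutic experiment for pGal against saline (0% of all genes; at an unadjusted p under 0.05, 1 of 34 and 4.12% of all genes) and for OVA against saline (0.121% of all genes; at an unadjusted p under 0.05, 2 of 34 and 9.46%). DESeq2 called 0 of the 34 in both, with 7 and 99 of 15747 genes. Of the pathway lists, Socs1 was lower after OVA than after saline in therapeutic OT-II cells (-0.96), as was Ifng, at 14.4 ± 10.7 CPM after OVA and 71.9 ± 57.7 CPM after saline (-2.33, adjusted p = 0.0239, edgeR). Epsti1 was higher after OVA than after saline in therapeutic OT-I cells (0.66).

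The 2 cell types were compared in the saline groups of both experiments. In prophylactic saline libraries, OT-I over OT-II cells, 5 of the 34 genes were higher and 7 lower, while 20.7% of all genes passed, 11.8% upward and 8.96% downward. Oas3, Lgals3bp, Dhx58, Trim30a and Ifi35 were higher in OT-I cells, and Ifi44, Ifit2, Oasl1, Ifih1, Ly6e, Irf9 and Irf1 were lower. Without OT-I saline library 3 of batch 1 the count was 7 (4 up, 3 down), and Ifih1 and Irf1 each lost their call in 8 of 10 fits that leave out 1 library, Ifi35 and Irf9 each in 6 and Oasl1 in 1. With same-numbered OT-I and OT-II libraries paired as a block, Irf1 missed the threshold (adjusted p = 0.0619, edgeR), and 15 genes passed. In therapeutic saline libraries 4 were higher and 3 lower, while 7.61% of all genes passed, 4.01% upward and 3.6% downward. Ifit3, Lgals3bp, Oas3 and Eif2ak2 were higher in OT-I cells, and Ifi44, Ifih1 and Isg20 were lower. With all therapeutic libraries under their labels this last count was 0. With same-numbered therapeutic libraries as a block it was 5, and Isg20 (adjusted p = 0.0578, edgeR) and Ifi44 (adjusted p = 0.255, edgeR) lost their call. Some markers that other cells also express were higher in the same OT-I libraries, by log2 fold changes of 4.97 for Gzma, 3.53 for Itgam, 3.06 for Klrb1c and 1.34 for Cd22. Their lists did not all point this way. The median log2 fold change was -1.05 over 10 B cell, -0.67 over 10 monocyte and macrophage and -0.75 over 7 plasmacytoid dendritic cell markers. It was 1.26 over 5 NK cell and 0.46 over 4 conventional dendritic cell markers. Itgax, an integrin of dendritic cells that activated T cells also express, had 118.8 ± 25.3 CPM in OT-I and 1.21 ± 0.737 CPM in OT-II saline libraries (SD, n = 6 each). Ifng was also higher, at 273.6 ± 93.2 CPM in OT-I and 71.9 ± 57.7 CPM in OT-II saline libraries (SD, n = 6 each). Their part in the difference was not tested.

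Ifi44, a GTP-binding-like protein induced by interferon, had the largest difference. It had 0.857, 1.95, 0.249, 1.60 and 1.16 CPM in prophylactic OT-I saline libraries, against 8.49, 17.5, 9.06, 13.9 and 10.9 CPM in OT-II saline libraries, with no overlap (log2 fold change -3.37, SE 0.48). In therapeutic saline libraries it had a median of 1.95 CPM (0.272 to 4.15) in OT-I and 14.5 CPM (0.300 to 28.3) in OT-II cells (-2.89, SE 0.76). There 1 OT-II library of 6 fell within the OT-I range.

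Lgals3bp had 290.2, 303, 281, 256 and 312 CPM in prophylactic OT-I saline libraries, against 148, 121, 124, 130.4 and 97.8 CPM in OT-II saline libraries (1.22, SE 0.10). In the therapeutic experiment it had 238 CPM (208 to 311) in OT-I and 107 CPM (57.9 to 124) in OT-II saline libraries (1.34, SE 0.19). The cell types did not overlap in either. Oas3 had 66.0, 85.3, 68.8, 96.6 and 131 CPM in prophylactic OT-I and 25.5, 31.2, 22.8, 44.6 and 37.6 CPM in OT-II saline libraries (1.47, SE 0.13). In therapeutic saline libraries Oas3 had 54.2 CPM (48.7 to 79.4) in OT-I and 28.2 CPM (10.7 to 48.2) in OT-II cells (1.08, SE 0.29), again without overlap.

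Ifih1 was lower in OT-I cells in both experiments (-0.60 and -0.92). Ifit3 was 149 ± 48.5 CPM in OT-I and 41.1 ± 24.6 CPM in OT-II cells in therapeutic saline libraries (SD, n = 6 each, 1.86, SE 0.36). In prophylactic saline libraries it was 86.2 ± 25.8 CPM in OT-I and 62.1 ± 18.8 CPM in OT-II cells (n = 5 each, 0.49), which did not pass. Over the 34 genes the cell type difference had the same sign in both experiments in 26, and its correlation between experiments across these genes was 0.837. Over all 12856 genes tested in both, 63.7% had the same sign and the correlation was 0.526. Genes are not independent replicates, and the figures are descriptive.

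**Figure D4:**
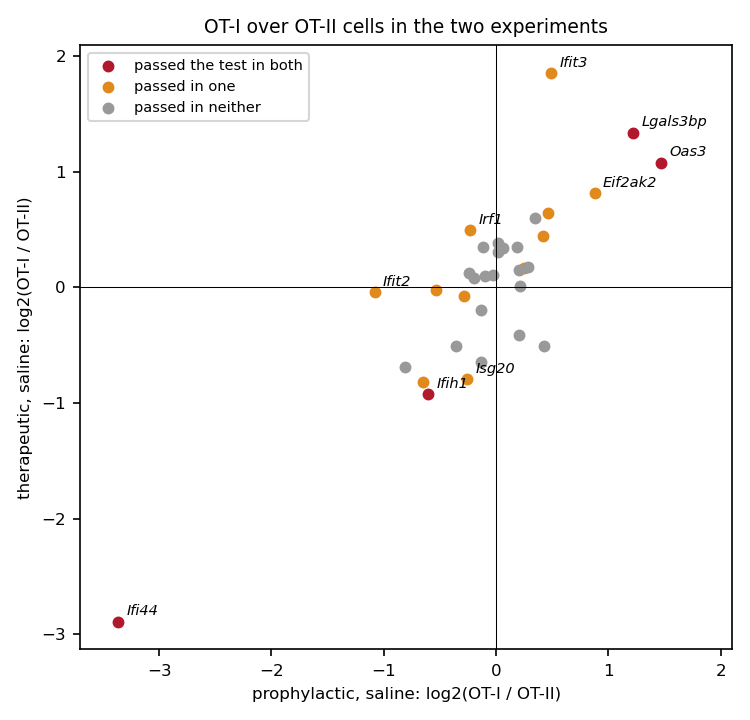
Log2 ratio of OT-I over OT-II saline libraries in the prophylactic (x axis) and therapeutic (y axis) experiments for each of the 34 genes. Oas3, Lgals3bp, Ifi44 and Ifih1 passed the test in the same direction in both, with Ifi44 at -3.37 and -2.89.

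Cell type genes were also described in the 11 therapeutic libraries with the coreceptor against their label. Ifit3 had a median of 33.6 CPM (13.2 to 55.8) in the 6 libraries labelled OT-I that go against it and 114 CPM (66.9 to 332) in the 22 that match. In libraries labelled OT-II it had 104 CPM (84.5 to 180.1) in the 5 against the label and 30.0 CPM (7.35 to 91.2) in the 20 that match. Ifih1 had 17.7 CPM (14.0 to 22.1) in the 5 labelled OT-II against 41.0 CPM (27.4 to 54.9) in the 20 that match. In the 6 labelled OT-I it had 40.3 CPM (30.7 to 48.2), against 21.5 CPM (10.5 to 36.7) in the 22 that match. Ifi44 had a median of 13.5 CPM (0.448 to 23.8) in the 6 labelled OT-I, against 1.95 CPM (0.0876 to 4.15) in the 22 that match, so 1 of the 6 lay within the matching range. In the 5 labelled OT-II it had 1.46 CPM (0.431 to 2.76), against 11.5 CPM (0.300 to 30.3) in the 20 that match. Oas3 had 26.6 CPM (12.9 to 59.6) in the 6 labelled OT-I, against 59.9 CPM (31.4 to 145) in the 22 that match, and Lgals3bp, likewise, 119 CPM (71.7 to 199.8) against 214 CPM (113 to 332). Ifi44, Oas3, Lgals3bp and Isg15 overlapped between libraries against their label and those that match, under both labels. Ifit3 overlapped under the OT-II label and Ifih1 under the OT-I label. These genes were not used to sort the libraries into matching or not.

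The experiments also differed in saline libraries, where priming, time since transfer, pooling of mice and the handling of sorted cells cannot be told apart. Therapeutic over prophylactic OT-I cells had 2 of 34 genes higher and 3 lower, while 27.3% of all genes passed, 14.2% upward and 13.1% downward. Oas1a had a log2 fold change of 0.75 and Ifit3 of 0.78, and Oasl1 had -1.28, Oasl2 -1.003 and Oas3 -0.59. With each of the 11 libraries left out in turn 3 to 7 genes passed, the 3 without prophylactic saline 2 of batch 2, and Ifit3 lost its call in 5 fits and Oas3 in 2. In OT-II cells 3 were higher and 3 lower, while 8.92% of all genes passed, 5.62% upward and 3.31% downward. Oas1a had 1.31, Isg15 0.89 and Isg20 0.74, and Ifit2 had -1.23, Oasl1 -1.08 and Ifit1 -0.89. Without any 1 of the 5 prophylactic OT-II libraries 2 or 3 genes passed. Ifit1 and Ifit2 each lost their call in 9 of 11 such fits, Isg20 in 7 and Isg15 in 3.

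Oas1a and Oasl1 passed in the same directions in both cell types, and did so with any 1 library left out. Oas1a had 74.7 ± 7.95 CPM in therapeutic (n = 6) and 31.1 ± 4.40 CPM in prophylactic OT-II saline libraries (SD, n = 5), with no overlap. Oasl1 had 16.0 ± 3.59 CPM in therapeutic and 33.9 ± 2.74 CPM in prophylactic OT-II saline libraries, likewise separate. Of 5 NK cell markers 2 rose with the experiment in OT-I cells, Klrb1c and Gzma, and the median log2 fold change of the list was 0.16. Other lists there had medians of -0.24 (10 B cell markers) and -0.94 (10 monocyte and macrophage markers). Those of dendritic cells had -0.70 (8 plasmacytoid markers) and 0.43 (6 conventional markers). In OT-II cells the medians were 1.36 for B cell, -0.45 for monocyte and macrophage and -0.20 for NK cell markers. Plasmacytoid and conventional dendritic cell markers had 0.46 and -0.34 there. Gzma, a granzyme that effector CD8 T cells also express, had 484 ± 256 CPM in therapeutic and 14.2 ± 8.29 CPM in prophylactic OT-I saline libraries (SD, n = 6 and n = 5). Ifng itself had 273.6 ± 93.2 CPM in therapeutic (n = 6) and 3.35 ± 1.32 CPM in prophylactic OT-I saline libraries (SD, n = 5), and 71.9 ± 57.7 CPM in therapeutic and 2.08 ± 0.374 CPM in prophylactic OT-II saline libraries. The part of these genes in the results was not tested. All genes had a median of 0.07 in the OT-I comparison and 0.14 in the OT-II comparison.

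Within groups the 34 genes moved together from library to library. After the mean of each group was subtracted, the median correlation over 561 pairs of the genes was 0.34 across 29 prophylactic libraries, against 0.011 over pairs of all 9616 genes with a mean of at least 5 CPM. Across 42 therapeutic libraries it was 0.264, against 0.054. In the prophylactic experiment Isg15, Ifit1, Irf7 and Usp18 followed the rest most closely, with mean correlations of 0.544, 0.52, 0.519 and 0.512, and Ly6e and Irf1 least, with -0.044 and 0.073. In the therapeutic experiment Rtp4 and Ifit3 led, both at 0.431, and Parp14 was lowest at -0.171. These correlations share depth and scaling within a library and carry no test.

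OT-I and OT-II libraries of the same treatment and number had related scores. Over 14 prophylactic pairs the correlation of the scores, as deviations from their group means, was 0.737 (Spearman's rho 0.697), and it was 0.643 without the 2 pairs farthest from the median OT-I deviation. The 8 pairs of batch 1 gave 0.74. Groups of batch 2 hold 2 libraries each, whose deviations mirror each other. The OT-II OVA group of batch 1 also holds 2 libraries, at -0.099 and 0.099. The highest pair, pGal 2 of batch 2, scored 6.86 in OT-I cells, 0.24 above its group mean, and 6.91 in OT-II cells, 0.23 above its group mean. The median correlation over the 34 genes was 0.436, against 0.125 over all genes. Over 19 therapeutic pairs the correlation of scores was 0.36 (rho 0.157) and rested on 2 pairs, without which it was -0.019. The median over the 34 genes there was 0.335, near the 0.33 of all genes. The labels do not say that the same number marks the same mice.

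**Figure D5:**
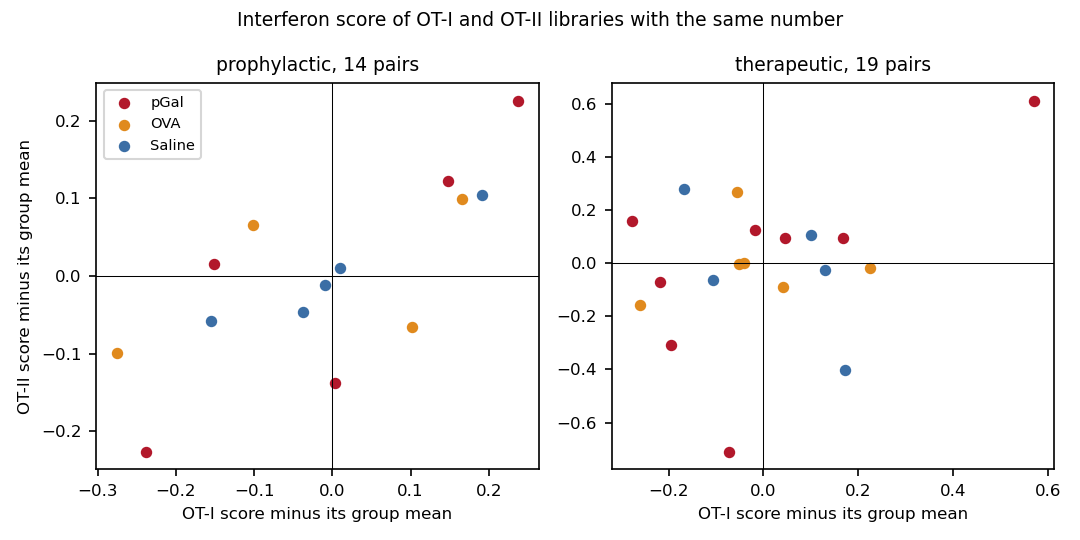
Deviation of the interferon score from its group mean in OT-I (x axis) and OT-II (y axis) libraries that share a treatment and number, in the prophylactic (left) and therapeutic (right) experiments. Points run along the diagonal in the prophylactic panel (r = 0.737 over 14 pairs) and less so in the therapeutic panel (r = 0.36 over 19 pairs).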

How the data were processed

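Bulk RNA was sequenced from sorted OT-I and OT-II cells after pGal, OVA or saline. The authors deposited estimated counts of protein-coding genes, 1 whole number per gene and library, in 3 tables. Per the submitters' processing notes, bcl2fastq and kallisto 0.46.1 were used with GRCm38. The sources used here do not say how transcripts were summed and rounded to genes. Every column was tied to a sample by its label (0 columns were left over). Genes were joined by symbol, which keeps 21823 genes; 77 others are in some tables only.

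Each comparison was fitted with edgeR 4.0.16 (R 4.3.3; filterByExpr, TMM scaling, robust quasi-likelihood test) on the libraries of its groups, with batch as a term in the prophylactic experiment, and p-values were adjusted over all genes tested by the Benjamini-Hochberg method. SE is the log2 fold change divided by the square root of F. Levels are CPM with TMM factors over 82 libraries; scores add a pseudocount of 1. Therapeutic fits use the 42 libraries whose coreceptor matches the label. Counting precision follows from totals of 21.2 to 68.2 M. Within a cell type and treatment, replicates are separate pools of 3 mice in the prophylactic experiment and separate mice in the therapeutic one. The main fits treat OT-I and OT-II libraries as separate, although same-numbered libraries may share mice, which the labels do not say.

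The members and all lists were chosen with earlier results of these data known. Called members are named, up to 12 by size; where none passed, the 3 with the smallest p. Values per library are given for up to 4 called members of at least 5 CPM per treatment comparison and for Isg15, Ifit3, Irf7 and Stat2. Same-numbered libraries paired OT-I with OT-II saline groups of the prophylactic experiment, where their deviations correlated at 0.252 to 0.541 in 5 pairs. No other comparison had all pairs over 0.1; therapeutic OT-I and OT-II saline libraries came nearest, at 0.094 to 0.538 in 5 pairs. Alternatives were DESeq2 1.42.0, other scaling, no filter, a replicate block, each batch alone, each library left out, and sets of libraries left out. Motifs were searched in RefSeq promoters of GRCm38.p6.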

Additional observations from a re-analysis of the deposited data

Results flagged for a closer look

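Of 96 groups of 4 to 8 libraries that match their label, 10 held a value with a gap to the others that is large for the size of the group, where chance gives about 1 in 20. The interferon score was 6.57 in prophylactic OT-II saline library 2 of batch 1, against 6.39 to 6.42 in the other saline libraries. It was 6.45 in therapeutic OT-II OVA library 5, against 6.03 to 6.18 in the others. Among single genes, Isg15 had 88.29 CPM in therapeutic OT-I OVA library 2, against 20.7 to 49.7 CPM in the other OVA libraries. Therapeutic OT-I OVA library 10 was the highest of its group in 3 genes. It had 557.1 CPM of Irf7 against 114 to 189 CPM in the others, 261.6 CPM of Stat2 against 67.3 to 128 CPM, and 57.45 CPM of Eif2ak2 against 23.5 to 39.2 CPM. Ifit3 had 331.8 CPM in therapeutic OT-I pGal library 1, against 66.9 to 128 CPM in the other pGal libraries. It had 91.24 CPM in therapeutic OT-II pGal library 1, against 7.347 to 40.0 CPM in the others. The OT-I and OT-II libraries named last share a number. Stat2 had 120.7 CPM in prophylactic OT-I saline library 1 of batch 2, a library with many B cell transcripts, against 73.2 to 83.6 CPM in the others. Oas1a had 87.55 CPM in prophylactic OT-II pGal library 2 of batch 2, against 54.4 to 60.8 CPM in the other pGal libraries.

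Samhd1 differed between cell types in its change after pGal against saline, by -0.747 on the log2 scale (OT-I minus OT-II, edgeR's interaction term, adjusted p = 0.00759).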

How the results depend on the processing

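The 12 differences in interferon score moved by less than the pooled SD of their libraries under all 36 alternatives tried for them. The differences ran from -0.23 to 0.20 and the group SDs from 0.074 to 0.385. This rule therefore cannot show that a difference kept its size or sign. The alternatives with members that pass the filter in every fit keep all 34 genes, so they repeat the main score. For members named in the text, 1055 of the alternative values kept their side of the threshold, 180 lost it, 5 gained it and 0 changed sign. The counts of members called moved by over 1.5 times as follows, and where they moved the cause was not tested. A refit can also change how many of all genes pass, so a moved count is not by itself a result about the members. Prophylactic OT-I pGal against saline (2) gave 1 with RLE scaling, 1 with the replicate block, 8 with DESeq2, and 0 without a filter on low counts, without B-rich libraries, in batch 1 alone, in batch 2 alone and without libraries with the other coreceptor; OVA against saline (1) gave 3 with DESeq2 and 0 under the same 5 settings. Prophylactic OT-II pGal against OVA (1) gave 8 with DESeq2, 3 without B-rich libraries, 2 in batch 1 alone, 0 in batch 2 alone and 2 without libraries with the other coreceptor. In batch 2 alone, which holds 2 libraries per group, prophylactic OT-II pGal against saline (12), OT-I against OT-II (12) and the pGal interaction (1) gave 0. The interaction gave 2 in batch 1 alone and 2 with DESeq2. DESeq2 gave 1 for therapeutic OT-I OVA against saline, 1 for OT-II pGal against saline and 2 for OT-II OVA against saline, where the count is 0, and 9 for therapeutic against prophylactic OT-I cells (5). Of all genes it called 371, 169, 714 and 5105 in these comparisons, where edgeR called 100, 1, 219 and 4143. In prophylactic OT-I OVA against saline and the pGal interaction it called 1356 and 398, where edgeR called 744 and 173. Without therapeutic libraries with over 5% mitochondrial counts or over 13000 genes above 1 CPM, a choice made after seeing the data, OT-II OVA against saline gave 1. With all libraries under their labels, therapeutic OT-I against OT-II (7) gave 0, and therapeutic against prophylactic gave 3 in OT-I (5) and 3 in OT-II cells (6); the last also gave 3 without B-rich libraries. Leaving out 1 library gave 0 to 4 for prophylactic OT-I pGal against saline, 0 to 3 for OVA against saline, 1 to 3 for OT-II pGal against OVA, 9 to 14 for OT-II pGal against saline and 7 to 14 for OT-I against OT-II. It gave 3 to 7 for therapeutic against prophylactic OT-I and 2 to 5 for OT-II cells, 2 comparisons in which, as in the interactions, this was added after seeing the data. With same-numbered libraries as a block, OT-I against OT-II gave 15 in the prophylactic experiment and 5 in the therapeutic one, where the lowest of 5 pairs missed the criterion of 0.1; prophylactic OT-II pGal against saline stayed at 12. Depth limits the lowest values most, such as Ifi44 at 0.249 to 1.95 CPM in prophylactic OT-I saline libraries.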
